A study of Homo sapiens with 4 samples.

Results

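Distal peaks of open chromatin on chromosomes 13 and 18, the autosomes with the fewest genes for their length, were examined in Huh7 cells with and without depletion of ARID1A. A peak was taken when it lay on either chromosome more than 1 kb and at most 100 kb from the nearest transcription start site (TSS), by the distance in the authors' lists. By this rule the shControl DMSO list held 1650 such peaks among 52192. There were 1500 among 49783 in shControl rapamycin, 1255 among 45700 in shARID1A DMSO, and 1276 among 44760 in shARID1A rapamycin. No level and no difference between lists entered the rule. Distal peaks of the gene-rich chromosomes 19 and 22, chosen the same way, were set beside them and numbered 1818, 1745, 1784 and 1675 in the same order.

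The peaks came from ATAC-seq, in which a transposase cuts and tags accessible DNA. Huh7 is an established human liver cancer line, and its cells carried a control hairpin RNA (shControl) or a hairpin against ARID1A (shARID1A). Each kind of cell was left in DMSO or given 100 nM rapamycin for 6 h, and 1 library of 50000 cells was made for each of the 4 groups. There were no replicates, so the spread between cultures is unknown and no test was made. Intervals in parentheses are 95% intervals, exact binomial ones for shares and counts, and cover counting error only. The depth of sequencing is unknown, and a peak list cannot show whether the hairpin lowered ARID1A.

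ARID1A binds DNA as a subunit of BAF, a SWI/SNF remodeller that uses ATP to move nucleosomes and is known for keeping enhancers, more than promoters, accessible. Rapamycin inhibits mTORC1, the kinase complex that couples nutrients to growth. Gene-poor chromosomes hold long stretches between genes, where most regulatory elements are far from any promoter, and chromosome 18 is known for its place at the nuclear periphery while chromosome 19 lies inside.

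The annotation bore the label out. Chromosome 13 carried 2.96 protein-coding genes per Mb up to its last gene and chromosome 18 carried 3.36, the lowest and next lowest of 22 autosomes. Chromosome 19 had 24.8, the highest, and chromosome 22 had 8.88. Among hepatocyte marker genes, which lie on other chromosomes, APOA1, APOB and HNF4A had a peak within 1 kb of the TSS in every list. ALB, AFP and SERPINA1 had none in any list.

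A pair of properties of the lists touches every result. Each list numbers its peaks in genome order, and the shARID1A DMSO list skips 380 of 2171 numbers on chromosomes 13 and 18 but 146 of 3119 on 19 and 22. The skipped share was 19.3% on chromosome 13, the highest of 22 autosomes, 15.6% on chromosome 18, 5.14% on chromosome 22 and 4.43% on chromosome 19, the lowest. The shControl rapamycin list skips 74 numbers on 13 and 18 and 25 on 19 and 22, and the other 2 lists skip none. The sources used here do not say what was skipped. The TSS set behind the authors' distances also differed between lists. A peak over the first exon of PTPRM, a receptor-type tyrosine phosphatase, was placed 836 bp from PTPRM in shControl DMSO and 819 bp in shARID1A rapamycin. In shControl rapamycin and shARID1A DMSO, the lists with skipped numbers, it was placed 181791 bp and 181776 bp from AP000897.2. Among distal peaks of 13 and 18 whose centre lay within 50 bp of a peak centre in the compared list, the nearest gene differed for 29 of 388 with knockdown in DMSO and 23 of 326 with knockdown in rapamycin, and 13 and 12 of them failed the distance rule in the second list. Calls of lost and gained peaks rest on coordinates alone, and counts were repeated with 1 set of RefSeq starts for all lists.

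Sequences around 4 RefSeq starts on these chromosomes show what kind of DNA the distal peaks covered where they met a start. They were chosen after their values were seen: THSD1 for a peak in the shARID1A lists alone, L3MBTL4 for a window under a peak in the shControl lists alone, MC5R for a peak in the DMSO lists alone and MBNL2 for a peak in all 4. Each is 300 bases of GRCh38.p14 from RefSeq, 5′ to 3′ on the strand of the gene, 250 bases before the start to 50 after, with every CG dinucleotide in capitals.
THSD1, chr13:52406123-52406422, minus strand: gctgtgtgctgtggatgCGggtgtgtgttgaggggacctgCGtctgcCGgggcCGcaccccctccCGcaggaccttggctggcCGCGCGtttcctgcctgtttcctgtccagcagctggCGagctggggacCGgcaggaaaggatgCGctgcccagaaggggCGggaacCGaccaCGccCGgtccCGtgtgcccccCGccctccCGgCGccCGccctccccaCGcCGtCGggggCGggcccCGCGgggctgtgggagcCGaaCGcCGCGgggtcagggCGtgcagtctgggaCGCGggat
L3MBTL4, chr18:6415210-6415509, minus strand: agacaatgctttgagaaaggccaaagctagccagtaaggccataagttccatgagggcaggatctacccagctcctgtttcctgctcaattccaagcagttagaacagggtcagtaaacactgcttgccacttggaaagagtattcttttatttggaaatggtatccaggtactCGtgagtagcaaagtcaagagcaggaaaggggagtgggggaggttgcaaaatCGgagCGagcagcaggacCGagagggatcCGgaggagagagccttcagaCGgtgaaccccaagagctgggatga
MC5R, chr18:13823899-13824198, plus strand: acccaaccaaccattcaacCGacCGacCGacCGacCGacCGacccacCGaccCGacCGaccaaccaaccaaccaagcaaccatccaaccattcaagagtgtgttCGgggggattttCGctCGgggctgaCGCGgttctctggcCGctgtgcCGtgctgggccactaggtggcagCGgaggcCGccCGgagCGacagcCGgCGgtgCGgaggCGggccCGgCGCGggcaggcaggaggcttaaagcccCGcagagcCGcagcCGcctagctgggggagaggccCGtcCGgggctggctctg
MBNL2, chr13:97141584-97141883, plus strand: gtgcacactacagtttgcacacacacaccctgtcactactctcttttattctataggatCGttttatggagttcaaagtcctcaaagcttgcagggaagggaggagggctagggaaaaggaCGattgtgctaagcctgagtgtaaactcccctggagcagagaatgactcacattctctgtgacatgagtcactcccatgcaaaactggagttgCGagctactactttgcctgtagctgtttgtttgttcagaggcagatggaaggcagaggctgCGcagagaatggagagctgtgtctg
The window of THSD1, a thrombospondin-domain protein gene, held 33 CG dinucleotides and 75% G+C. That of MC5R, a melanocortin receptor gene, held 32 and 69.7%. The L3MBTL4 and MBNL2 windows, at alternative starts of a chromatin-reader gene and a splicing-factor gene, held 6 and 4, with 50.7% and 48.7% G+C. The median over all 35116 RefSeq windows was 14. Distal peaks of 13 and 18 met 174 RefSeq windows in all, and 121 of these (69.5%) were under a peak in all 4 lists. The median of the 174 was 21 CG dinucleotides, beside 9 over all 1613 windows of the 2 chromosomes. TGANTCA, the AP-1 motif, was found on either strand in 14 of the 174 windows (8.05%), in 9.73% of the windows of 13 and 18 and in 7.71% of all windows, so its direction turned with the background. TGTTTAC (forkhead) was in 6.32%, 4.15% and 3.42%, and GGAATG (TEAD) in 8.62%, 13.8% and 14.03%. No motif contains another. MBNL2 held 2 matches to TGANTCA and L3MBTL4 held 1 to TGTTTAC. At THSD1 the peak was 6046 bp from the authors' TSS in shARID1A rapamycin, and thus distal, but 10 bp in shARID1A DMSO. It ranked at 76.3% and 93.9% of these lists. At L3MBTL4 the shControl DMSO peak was distal and ranked at 97.7% of its list. The shControl rapamycin peak there ranked at 44.4% and was 321 bp from the authors' TSS, so not distal. The L3MBTL4 window at chr18:6414862-6415161 was under a peak in shARID1A DMSO as well. Members that met any RefSeq window were 83 of 1650 (5.03%) in shControl DMSO and between 6.03% and 7.09% in the shARID1A lists.

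Distal peaks of 13 and 18 were remote even among distal peaks. In shControl DMSO their median distance to the TSS was 20551 bp, beside 8559 bp on 19 and 22 and 16233 bp on all chromosomes. Of those on 13 and 18, 35.2% (32.8 to 37.5) lay over 30 kb away, beside 9.35% (8.05 to 10.8) on 19 and 22. Of the 1650, 827 were in introns, 695 were intergenic (42.1%, beside 30.4% on 19 and 22), 54 in exons, 33 at transcript ends and 41 in what the authors' annotation called promoter. A share of 15.9% (14.1 to 17.7) had no other listed peak within 50 kb, beside 4.18% (3.31 to 5.20). That share was 16.7%, 19.2% and 18.8% in shControl rapamycin, shARID1A DMSO and shARID1A rapamycin. Widths were alike, with medians of 605.5 bp and 603 bp in shControl DMSO. By the authors' Peak Score, used here only as a rank within a list, 2.55% were in the strongest decile, beside 5.67% on 19 and 22. The median rank was 58.9% of the list, beside 54.2% on 19 and 22 and 58.4% on all chromosomes. Distal peaks of 13 and 18 were thus somewhat weaker there than those of 19 and 22, but near all distal peaks. Medians on 13 and 18 and on 19 and 22 were 58.8% and 53.2% in shControl rapamycin and 61.6% and 53.4% in shARID1A rapamycin. In shARID1A DMSO they were 58.0% and 57.6%, beside 60.2% on all chromosomes. Shares below were compared within score deciles. Near the limits of the rule in shControl DMSO, a peak at 1007 bp from LIPG was inside and one at 998 bp from TPTE2P5 outside. A peak at 99960 bp from ENOX1 was inside and one at 100105 bp from AL445264.1 outside.

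The 5 regions with the best mean rank among those that passed the rule in all 4 lists, of which there were 768, lay at named places on both chromosomes. The strongest, chr18:3623597-3625182 in an intron of DLGAP1, ranked at 0.650%, 1.60%, 1.78% and 2.18% of its lists in the order shControl DMSO, shControl rapamycin, shARID1A DMSO, shARID1A rapamycin. It stood in the top few percent of every list. The others were in an intron of SMIM2-AS1 (chr13:44141678-44142709), at -7646 bp from the TSS of AC090236.1 (chr18:58407019-58408397), in an intron of AL139383.1 (chr13:33542363-33543231) and 71275 bp from NUFIP1 (chr13:44917672-44918804). Their mean ranks were between 1.90% and 4.51%.

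Fewer distal peaks of 13 and 18 were listed in shARID1A than in shControl cells. In DMSO the number was 1650 in shControl and 1255 in shARID1A, lower by 395, a change of -23.9% (-29.4 to -18.1). Distal peaks of 19 and 22 changed by -1.87%, and those of all chromosomes by -15.6%. In rapamycin the number on 13 and 18 was 1500 and 1276, a change of -14.9% (-21.1 to -8.28). The change was -4.01% on 19 and 22 and -12.8% on all chromosomes, so 13 and 18 were near all chromosomes in rapamycin. Chromosome 13 had 871 and 628 in DMSO and 773 and 652 in rapamycin. Chromosome 18 had 779 and 627, and 727 and 624. Both chromosomes were thus lower in both treatments. With RefSeq starts for all lists the changes were -22.6% and -14.5%. On 19 and 22 they were -0.379% and -5.38%, and on all chromosomes -14.3% and -12.0%. Were every skipped number a distal peak, the change in DMSO on 13 and 18 would be -0.909% (-7.52 to 6.17). Lists without any skipped number, shControl DMSO and shARID1A rapamycin, differed by -22.7%, beside -7.87% on 19 and 22 and -17.8% on all chromosomes. These lists also differ in treatment.

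**Figure D1:**
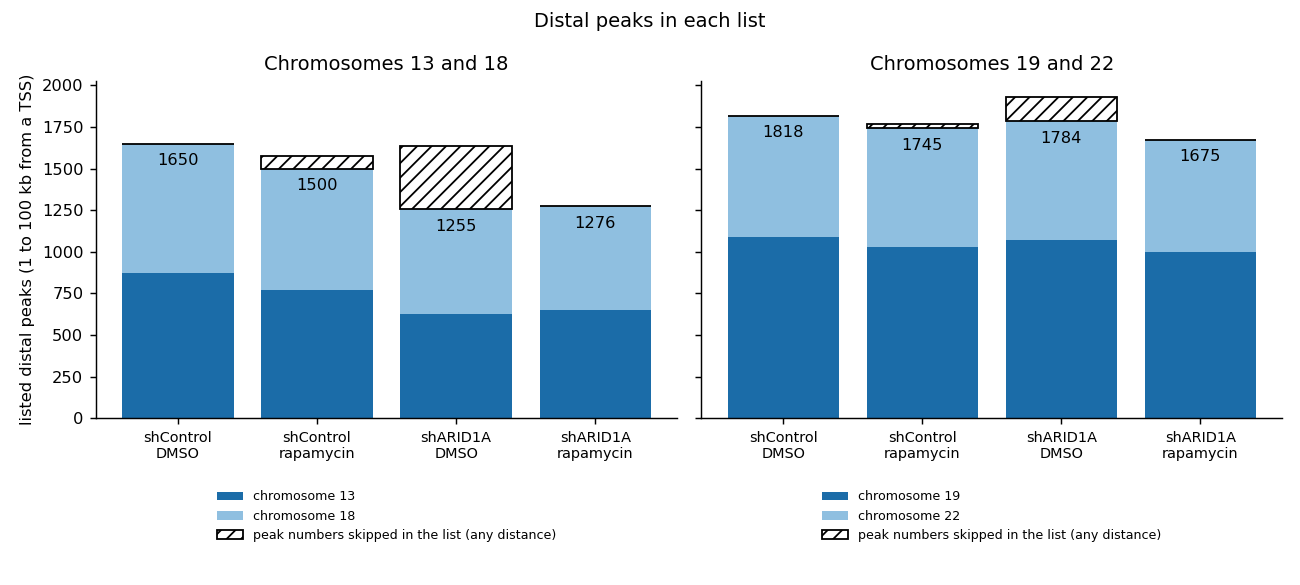
Listed distal peaks (count, vertical axis) in each of the 4 lists, on chromosomes 13 and 18 (left) and 19 and 22 (right); hatching gives the peak numbers a list skips on those chromosomes at any distance from a TSS. On 13 and 18 the solid bars run from 1650 to 1255, and with hatching the shARID1A DMSO bar comes near the shControl DMSO bar.

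Among listed peaks, the lower numbers were away from promoters, on 13 and 18 as on all chromosomes. Peaks within 1 kb of a TSS on 13 and 18 numbered 446, 440, 434 and 447 in the 4 lists. They changed by -2.69% with knockdown in DMSO and 1.59% with knockdown in rapamycin, beside 0.130% and -0.851% on all chromosomes. Peaks of 13 and 18 beyond 100 kb numbered 175, 160, 102 and 109, a change of -41.7% and -31.9%. On all chromosomes peaks beyond 100 kb changed by -29.4% and -20.8%. Along the chromosomes, cut into 20 windows of 10 Mb, distal peaks were fewer with knockdown in DMSO in 19 windows and equal in 1. With knockdown in rapamycin they were fewer in 13, more in 5 and equal in 2. Reduction in listed peaks was thus spread along both chromosomes in DMSO and less even in rapamycin. The 380 numbers skipped by the shARID1A DMSO list have no known distance to a TSS and were not placed in these windows.

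Counts alone hide exchange between lists, so each peak was asked for an overlap of at least 1 bp in the other list. With knockdown in DMSO, 608 of the 1650 distal peaks were lost, 36.8% (34.5 to 39.2), beside 34.2% of distal peaks on all chromosomes and 25.7% (23.7 to 27.8) on 19 and 22. Only 216 of 1255 were gained, 17.2% (15.2 to 19.4), beside 22.2% on all chromosomes and 25.9% on 19 and 22. The list that holds these gains is the one that skips 380 numbers on 13 and 18. Were every skipped number a gained distal peak, the shares would be 36.5% (34.1 to 38.8) on 13 and 18 and 31.5% (29.4 to 33.6) on 19 and 22, so the lower share of gains in this comparison does not hold at that bound. The lost outnumbered the gained, as listed, 2.81 to 1 on 13 and 18, and 1.01 to 1 on 19 and 22. Within score deciles the lost share was 9.40 percentage points higher than on 19 and 22 (6.69 to 12.1), and 2.88 points higher than on all other autosomes (0.881 to 4.88). The share lost on 13 and 18 was above that on 19 and 22 in 8 of 10 deciles and below in none, with no loss on either in the strongest 2 (0 of 42 and 0 of 86 peaks on 13 and 18, with exact upper limits of 8.41% and 4.20%). In the eighth decile it was 59.0% beside 36.1%. Chromosome 13 had the highest lost share of 22 autosomes, 39.2%, and chromosome 18, at 34.3%, the 12th highest. Giving skipped numbers of the shARID1A DMSO list to as many lost peaks as their intervals allow removed 219 of the 608, left 23.6% lost and brought the difference to 0.506 points (-2.03 to 3.04). Among peaks in intervals without a skipped number it was 3.25 points (0.449 to 6.06), and 26.4% of 1170 were lost.

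With knockdown in rapamycin, 505 of 1500 distal peaks were lost, 33.7% (31.3 to 36.1), next to 33.4% on all chromosomes and 28.2% on 19 and 22. This share was near that of all chromosomes. The difference within deciles was 3.39 points against 19 and 22 (0.535 to 6.25) and 0.819 against all other autosomes (-1.26 to 2.90). Gains were 267 of 1276, 20.9% (18.7 to 23.3), beside 22.9% on all chromosomes and 24.3% on 19 and 22. Within deciles the share gained differed from that on 19 and 22 by -7.06 points (-9.97 to -4.16), and the difference from other autosomes was -2.64 (-4.71 to -0.565). The shARID1A rapamycin list that holds these gains skips no number. The fewer gains were seen in 7 of 10 deciles, and 1 decile went the other way.

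**Figure D2:**
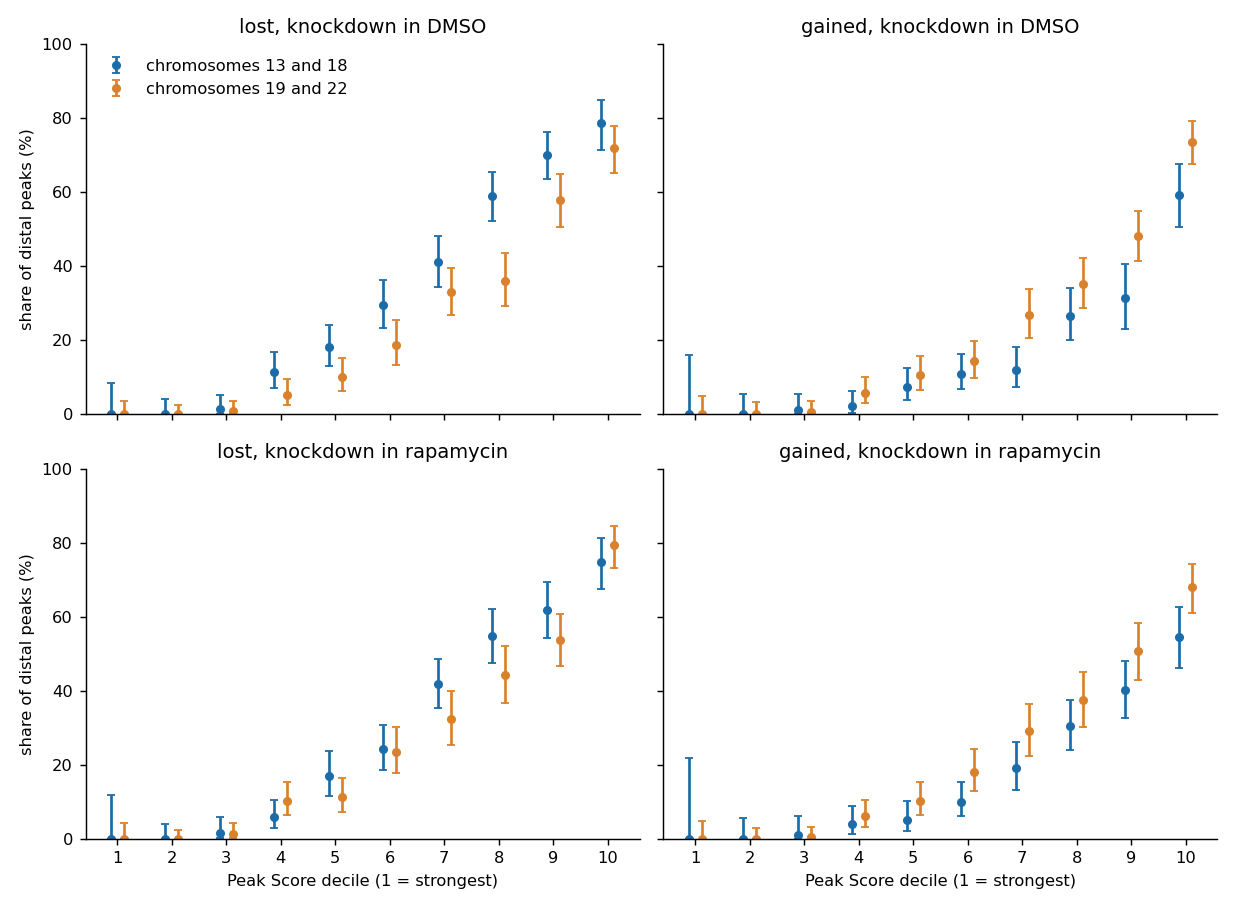
Share of distal peaks lost (left) and gained (right) in percent with knockdown in DMSO (top) and in rapamycin (bottom), by Peak Score decile of the list that holds the peak, for chromosomes 13 and 18 and 19 and 22; bars are exact binomial 95% intervals. Loss and gain are at 0 in decile 1 and climb to between 54.4% and 79.2% in decile 10, and in DMSO the lost share in decile 8 is 59.0% on 13 and 18 beside 36.1%.

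Among listed peaks, gains were also fewer on 13 and 18 with rapamycin in shControl cells. Rapamycin in shControl cells gave 292 gained of 1500, 19.5% (17.5 to 21.6), beside 22.9% on all chromosomes, and -5.09 points within deciles against 19 and 22 (-7.66 to -2.51). Chromosome 13 had the lowest and chromosome 18 the next lowest gained share of 22 autosomes in that comparison, at 18.8% and 20.2%. The same order held for knockdown in DMSO, at 16.4% and 18.02%, a comparison that shares the shControl DMSO list. The shControl rapamycin list that holds the first of these gains also skips its highest shares of numbers on chromosomes 13 and 18, 3.70% and 3.08%. Were all of its skipped numbers gained distal peaks, 23.3% (21.2 to 25.4) would be gained on 13 and 18 and 24.2% (22.3 to 26.3) on 19 and 22, with chromosome 13 at 22.9%, the next lowest of 22 autosomes, and chromosome 18 at 23.6%, the 4th lowest. The same count for knockdown in DMSO would put chromosome 13 at 38.0%, the 20th lowest, and chromosome 18 at 34.8%, the 6th lowest. Losses with rapamycin in shControl cells were 433 of 1650, 26.2%, beside 26.8% on all chromosomes, and the difference within deciles from 19 and 22 was -0.0906 points (-2.66 to 2.48). In number, distal peaks went from 1650 to 1500, a change of -9.09% (-15.3 to -2.45), and were fewer in 18 of 20 windows. The change was -4.02% on 19 and 22 and -5.75% on all chromosomes.

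With rapamycin in shARID1A cells the number of listed distal peaks was 1255 and 1276, a change of 1.67% (-6.02 to 10.0). Distal peaks of 19 and 22 changed by -6.11%, and those of all chromosomes by -2.54%. In the stronger 50% of each list the change on 13 and 18 was -11.4%. With every skipped number counted as a distal peak it was -22.0% (-27.5 to -16.0). There were 295 lost of 1255, 23.5%, beside 27.1% on all chromosomes, and 311 gained of 1276, 24.4%, beside 24.7%. Differences within deciles from 19 and 22 were -1.39 points for losses (-4.05 to 1.27) and -0.278 for gains (-3.13 to 2.57). The losses come from the list with 380 skipped numbers, and were each of these a lost distal peak the share would be 41.3% on 13 and 18 and 32.0% on 19 and 22. The gains depended on the skipped numbers of the shARID1A DMSO list. These could account for 139 of the 311, after which 13.5% were gained and the difference was -6.28 points (-8.84 to -3.73). In intervals without a skipped number it was -4.61 (-7.41 to -1.81).

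**Figure D3:**
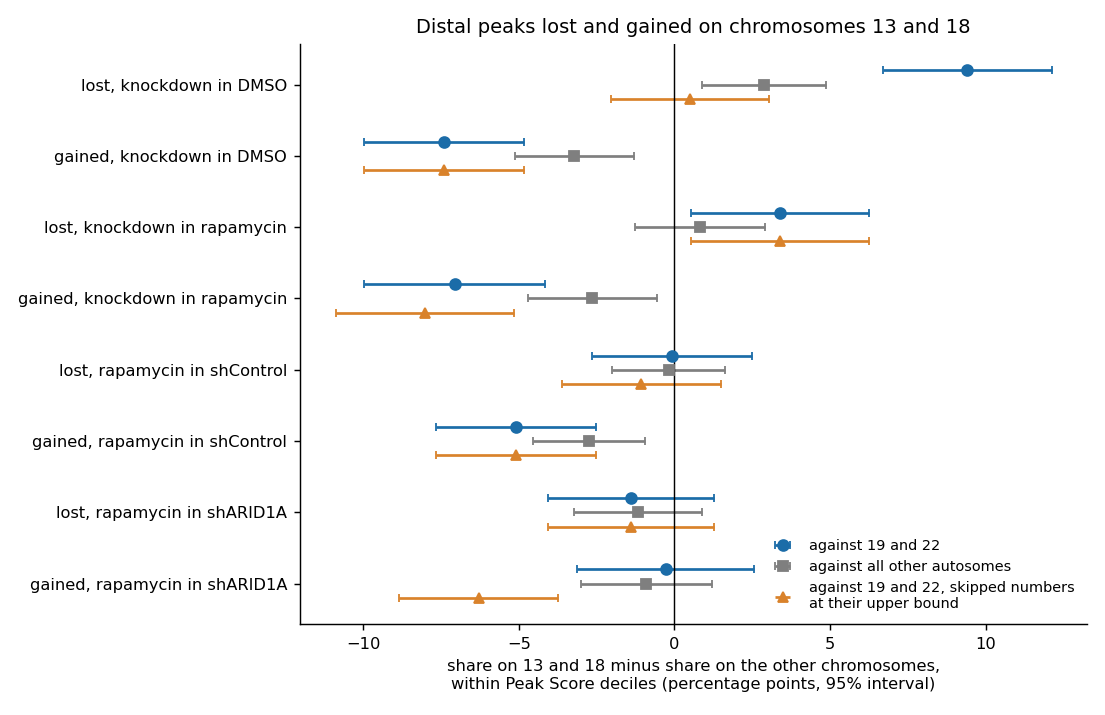
Difference in the share of distal peaks lost or gained between chromosomes 13 and 18 and the other chromosomes within Peak Score deciles (percentage points, horizontal axis, 95% intervals) for the 8 results. Circles are against 19 and 22, squares against all other autosomes and triangles against 19 and 22 with skipped numbers at their upper bound; the triangle for loss with knockdown in DMSO is at 0.506, the circle at 9.40. The triangles fill skipped numbers of the other list only, so for gains with knockdown in DMSO the triangle is at the circle by construction.

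The 2 pairs of lists that differ in both hairpin and drug gave side values. From shControl DMSO to shARID1A rapamycin, which skip no number, 615 of 1650 distal peaks were lost, 37.3%, beside 36.5% on all chromosomes, and 19.1% were gained, beside 22.3%. Within deciles the differences from 19 and 22 were 4.93 points (2.14 to 7.72) and -9.71 (-12.6 to -6.83). From shControl rapamycin to shARID1A DMSO, 32.9% were lost, beside 31.5%, with differences within deciles of 8.07 points for losses (5.34 to 10.8) and -4.27 for gains (-6.83 to -1.71). These pairs share lists with the comparisons above. Fewer gains than on 19 and 22 were listed in both, and the list that holds the gains of the second pair is the one with 380 skipped numbers.

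Merging overlapping peaks of the 4 lists gave 2258 regions on 13 and 18 with a distal peak in at least 1 list, and 2839 on 19 and 22. Regions listed in all 4 were 883, or 39.1% (37.1 to 41.2), beside 42.2% on 19 and 22 and 38.3% on all chromosomes. Regions in both shControl lists and neither shARID1A list were 164, or 7.26% (6.23 to 8.41), beside 3.70% (3.03 to 4.46) on 19 and 22 and 5.96% on all chromosomes. The reverse pattern, both shARID1A lists and neither shControl list, held 45 regions, 1.99% (1.46 to 2.66), beside 2.57% and 2.04%. Regions in all lists but shARID1A DMSO were 4.83%, beside 2.18% on 19 and 22 and 3.67% on all chromosomes. Those in all but shARID1A rapamycin were 5.14%, beside 4.40% and 4.69%. Patterns without shARID1A DMSO, among them that of both shControl lists alone, could include regions whose peak that list skips. It skips 17.5% of its numbers on 13 and 18 and 4.68% on 19 and 22. How many such regions there were was not tested. Most regions seen in a single list were weak, with a median best rank of 85.3% for shControl DMSO alone and 34.7% for regions in all lists.

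**Figure D4:**
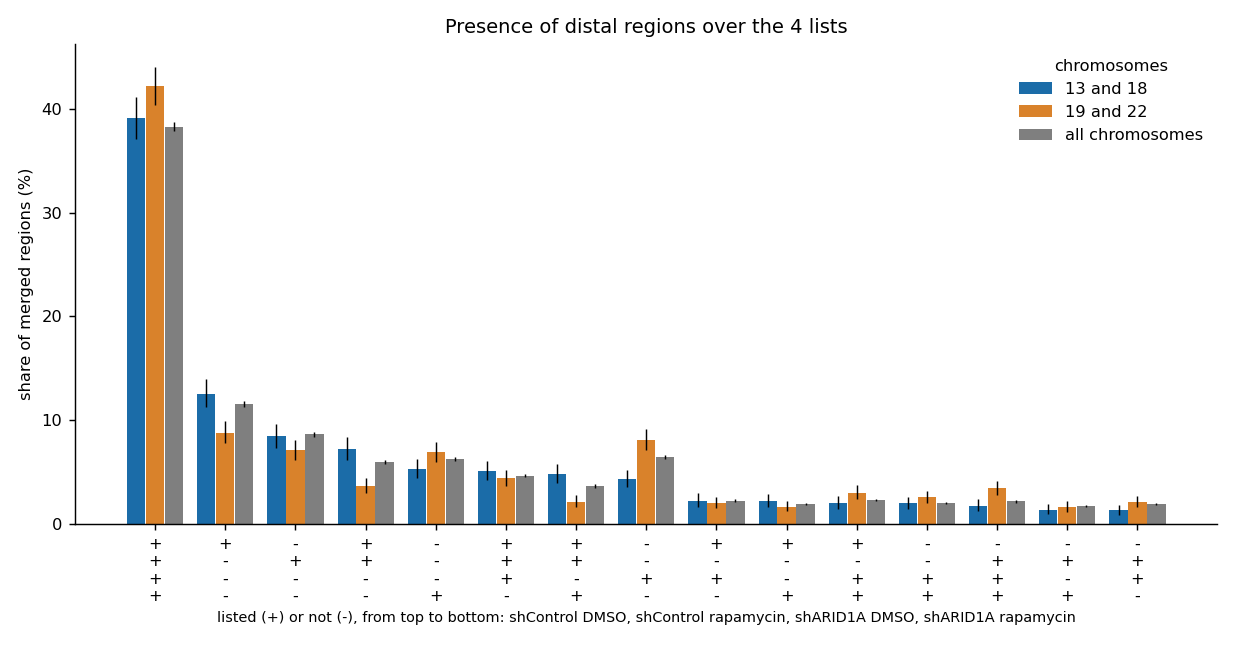
Share of merged regions (%, vertical axis) with each of the 15 presence patterns on chromosomes 13 and 18, 19 and 22 and all chromosomes; bars are exact binomial 95% intervals. The pattern with both shControl lists alone stands at 7.26% on 13 and 18, 3.70% on 19 and 22 and 5.96% on all chromosomes. Skipped numbers of a list are not filled in.

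The named regions were the 5 lost and 5 gained distal peaks with the best score rank in each comparison. The strongest loss with knockdown was the same in both treatments. It lay at chr13:24096859-24097773, in an intron of AL359736.1 by the shControl DMSO annotation and of SPATA13, a guanine nucleotide exchange factor gene, by that of shControl rapamycin. It ranked at 22.7% of the shControl DMSO list and 27.2% of the shControl rapamycin list, and was in neither shARID1A list. No number was skipped in its interval. In DMSO the next were a peak at -39065 bp from the TSS of MEX3C, where minus means upstream, an RNA-binding ubiquitin ligase (chr18:51236078-51236692, rank 26.7%), and peaks in an intron of DYM (30.9%), near LINC01895 (32.7%) and near MED4, a Mediator subunit (33.3%). The last 3 had skipped numbers of the shARID1A DMSO list in their intervals. The MED4 peak was listed in shARID1A rapamycin, at 89.2%. In rapamycin the next were peaks in introns of GREB1L (chr18:21264473-21264956, 29.5%) and WDR7 (chr18:56807507-56808267, 30.7%), near LINC01079 (34.3%) and near STARD13-AS (34.6%). The GREB1L and LINC01079 peaks were in every list but shARID1A rapamycin, and the WDR7 peak was in shControl rapamycin alone.

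The strongest gain with knockdown was again common to both treatments. A peak at -2428 bp from the TSS of ARGLU1, a splicing-linked gene, at chr13:106570443-106570742 ranked at 26.9% in shARID1A DMSO and 24.4% in shARID1A rapamycin, and neither shControl list held it. It was 300 bp wide and 2202 bp from the nearest shControl DMSO peak. In rapamycin the other gains included a peak in an intron of PPP4R1, a phosphatase subunit gene (30.7%), which was in every list but shControl rapamycin, and a peak at -14163 bp from the TSS of LATS2, a kinase of the Hippo pathway (37.7% in shARID1A rapamycin, 60.5% in shARID1A DMSO, neither shControl list). In DMSO they included peaks in introns of NEK5 (39.5%) and CNDP1 (40.6%), near LINC00330 (38.8%) and near SNRPGP2 (38.9%). The NEK5 peak was also in shARID1A rapamycin (51.7%) and in neither shControl list. The CNDP1 peak was in shARID1A DMSO alone. The LINC00330 peak was also in shControl rapamycin (49.9%) but not in shARID1A rapamycin. The SNRPGP2 peak was in shControl rapamycin (31.4%) and in shARID1A rapamycin (70.4%). The gains named here were the best-ranked ones. Of all 216 gains in DMSO, 160 (74.1%) lay in the weakest 3 deciles of the list and the median rank was 82.8%. In rapamycin the same held for 207 of 267 (77.5%), with a median of 82.5%.

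Under rapamycin the peak over the MC5R start printed above, at rank 35.4% in shARID1A DMSO and 43.0% in shControl DMSO, was in neither rapamycin list. A second peak at -12248 bp from the MC5R TSS ranked at 70.4% in shControl DMSO, 70.9% in shARID1A DMSO and 37.7% in shARID1A rapamycin, and was not in shControl rapamycin. The PCDH9 intron peak at chr13:67119359-67119901 was likewise in the DMSO lists alone, at 44.2% in shControl and 40.9% in shARID1A. PCDH9 encodes a protocadherin of cell adhesion. The strongest gain with rapamycin in shARID1A cells was a peak in an intron of MAPK4 at chr18:50614932-50615250 (31.0%), which was also in both shControl lists at 38.0% and 48.9%.

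For genes, the nearest protein-coding RefSeq start was used, the same for all lists, since the authors' nearest gene varied. This set of starts held 533 protein-coding genes of the 2 chromosomes, meant below by all protein-coding genes. The annotation held 338 on chromosome 13 and 270 on chromosome 18, so some genes had no start in the set. Peaks nearest to such a gene were counted at another gene. ATP8B1 had no start, and the authors named it for 3 distal peaks in shControl DMSO and 2 in shARID1A rapamycin. The 5 genes of each chromosome with the most distal peaks are given here, chosen by count alone. STARD13, which encodes a GTPase-activating protein, had 18 distal peaks in shControl DMSO and 12 in shControl rapamycin, and in shARID1A cells 10 in DMSO and 9 in rapamycin. Counts below keep this order. With knockdown in DMSO 8 were lost, the most of any gene in this set, and none gained. Of the 8, 6 were in intervals with no skipped number. CDH2, which encodes N-cadherin, had 15, 12, 10 and 10, with 7 lost and 2 gained in DMSO. SPATA13 had 12, 11, 8 and 6. MBNL2 had 13, 11, 9 and 7. LRCH1, an actin-regulating gene, had 12, 9, 6 and 8, and LPIN2, a lipid phosphatase gene, 11, 12, 9 and 9. These 6 genes, among those chosen for having the most peaks, were lower in both shARID1A lists than in both shControl lists. Distal peaks of all chromosomes changed by -15.6% with knockdown in DMSO and -12.8% in rapamycin. How many of the 533 genes were lower in both shARID1A lists was not counted, so these 6 cannot be set apart from that change over all chromosomes. Of the peaks lost in DMSO, 2 of 7 at CDH2, 3 of 6 at SPATA13 and 2 of 6 at LRCH1 were in intervals with skipped numbers. None of the 3 at MBNL2 or the 3 at LPIN2 were. NEDD4L, a ubiquitin ligase gene, had 13, 17, 12 and 14 with 7 lost and 2 gained with knockdown in rapamycin. STK24, a kinase gene, had 11, 12, 13 and 7. SMAD7, the inhibitor of TGF-beta receptors, had 11, 11, 11 and 8, and ZNF516 had 12, 13, 14 and 12. Neither of the last 2 lost a distal peak with knockdown in DMSO. PTPRM, at 11, 8, 11 and 7, had the most gains with knockdown in DMSO, 7, and 6 losses.

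**Figure D5:**
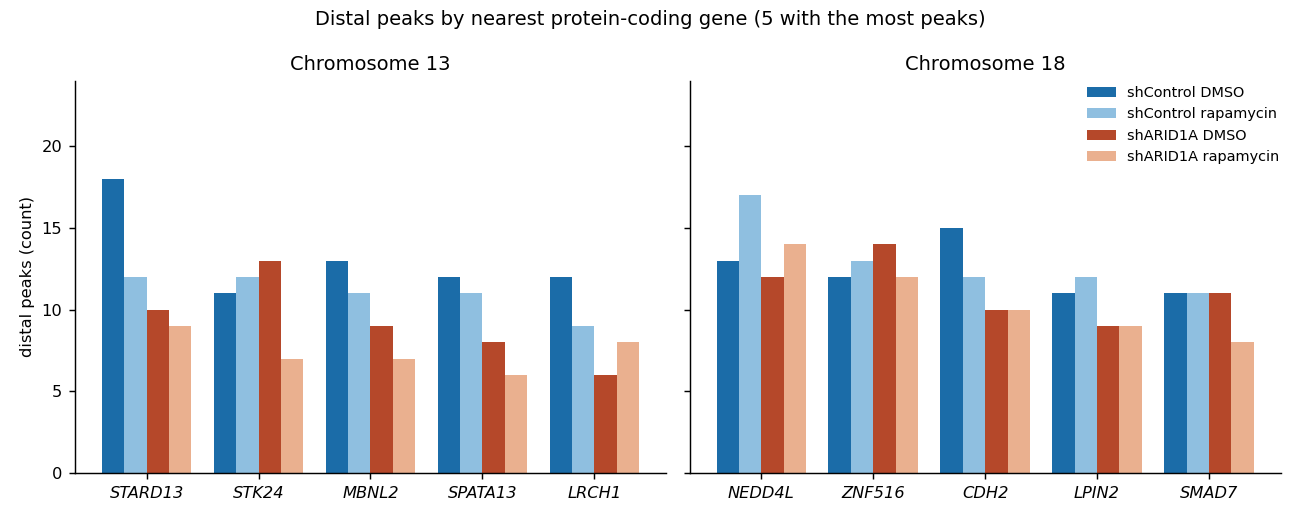
Distal peaks (count, vertical axis) whose nearest protein-coding RefSeq start is the named gene, for the 5 genes with the most on chromosomes 13 (left) and 18 (right), 1 bar a list. STARD13 goes from 18 in shControl DMSO to 9 in shARID1A rapamycin, while ZNF516 stays between 12 and 14.

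Over the 533 protein-coding genes of the 2 chromosomes in this set of starts, 184 had fewer distal peaks with knockdown in DMSO (34.5%). There were 61 with more (11.4%) and 288 with as many. With knockdown in rapamycin 140 had fewer (26.3%) and 98 more (18.4%). The median difference was 0 in both. Of 49 genes in 7 lists of functions that matched this set, 18 had fewer (36.7%) and 6 more (12.2%) in DMSO. In rapamycin 23 had fewer (46.9%) and 4 more (8.16%), and median differences were 0. A distal peak was listed somewhere for 42 of the 49 and for 406 of the 533, and a gene without any cannot have fewer. TTR, ATP8B1 and LAMA1 had no entry.

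Of 6 genes of TGF-beta signalling, 2 had fewer and 2 more with knockdown in DMSO, with 3 of 27 peaks lost (11.1%), beside 33.0% over all protein-coding genes of 13 and 18. In rapamycin 5 had fewer and none more, and 13 of 29 were lost (44.8%), beside 31.4%, for a median difference of -1.5. By the authors' nearest genes the list's peaks went from 13 to 15 with knockdown in DMSO and from 12 to 10 in rapamycin, so its direction in DMSO turned with the annotation, from 27 to 26 by RefSeq starts. SMAD2, a receptor-activated SMAD, had 3, 4, 4 and 2 distal peaks over the lists, SMAD4, the common partner, 5, 3, 4 and 3, and TGIF1, a repressor of SMAD targets, 6, 8, 4 and 5. The shARID1A rapamycin list held fewest for SMAD2 and SMAD7.

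Of 7 genes of insulin, mTOR and autophagy, 5 had fewer and 2 more in DMSO, and 4 fewer and 1 more in rapamycin, with a median difference of -1 in both. Over all protein-coding genes 34.5% had fewer in DMSO and 26.3% in rapamycin, but all 7 of this list had a distal peak. Lost were 9 of 23 peaks in DMSO (39.1%), beside 33.0%, and 9 of 20 in rapamycin (45%), beside 31.4%. Gained shares were 17.6%, beside 17.3%, in DMSO and 26.7%, beside 21.9%, in rapamycin. NPC1, which exports cholesterol from lysosomes, had 11, 9, 8 and 7. FOXO1, the insulin-restrained transcription factor, had 5, 3, 4 and 2, and IRS2, an insulin receptor substrate, 3, 3, 2 and 1. Of 7 Hippo and cytoskeleton genes, 4 had fewer and 1 more in each treatment, with medians of -1. In DMSO 21 of 51 peaks were lost (41.2%), beside 33.0% over all protein-coding genes, and in rapamycin 13 of 39 (33.3%), beside 31.4%. By the authors' nearest genes the list's peaks went from 12 to 3 in DMSO but rose in number from 5 to 11 in rapamycin, against 39 to 34 by RefSeq starts, so the direction in rapamycin rests on the annotation. LATS2 had 4, 4, 4 and 3 and KLF5, a zinc-finger transcription factor gene, 7, 3, 4 and 4.

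Of 10 liver and bile genes, 3 had fewer and none more in DMSO, and 5 fewer and 1 more in rapamycin. There the sum went from 23 to 17 by RefSeq starts and was 6 and 6 by the authors' nearest genes. Over all protein-coding genes 34.5% had fewer in DMSO and 26.3% in rapamycin. Lost in the liver list were 4 of 22 peaks in DMSO (18.2%), beside 33.0%, and 8 of 23 in rapamycin (34.8%), beside 31.4%. GATA6, a transcription factor of endoderm, had 6, 7, 6 and 5, ONECUT2, a hepatic transcription factor gene, 4, 6, 4 and 5, and ATP7B, the copper exporter of hepatocytes, 3, 2, 2 and 2. Of 11 genes of the cell cycle and DNA repair, 3 had fewer and 1 more in each treatment. Their lost peaks were 4 of 17 in DMSO (23.5%) and 5 of 14 in rapamycin (35.7%). SKA1, a spindle protein gene, had 4, 5, 4 and 4. Of 7 adhesion and matrix genes, 1 had fewer in DMSO (CDH2) and 2 in rapamycin, and none more. Their lost peaks were 7 of 18 in DMSO (38.9%) and 8 of 17 in rapamycin (47.1%). SS18, a SWI/SNF subunit gene, had no distal peak in any list.

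Of 12 markers of other cell types, 7 had a distal peak in some list, with sums of 29, 27, 20 and 23 over the lists. Most came from CDH2, which is also a hepatic gene, and from MBP with 6, 7, 7 and 5. The endothelial markers FLT1 and EDNRB had 2, 2, 0 and 1 and 3, 2, 0 and 1. All 3 EDNRB peaks and the 2 FLT1 peaks lost with knockdown in DMSO were in intervals with skipped numbers of the shARID1A DMSO list. The leukocyte marker ALOX5AP went the other way, at 3, 3, 3 and 5. MALT1 had 0, 1, 0 and 0, and DCLK1 had 0, 0, 0 and 1. LCP1, POSTN, SLITRK1, SLITRK5 and GRP had none in any list by RefSeq starts. By the authors' names LCP1 had 1, 0, 0 and 1. The part of these markers in the results was not tested.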

How the data were processed

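ATAC-seq was done in 4 Huh7 groups with 1 library each. BWA and MACS2 2.0 on GRCh38 (hg38) are named in the submitters' processing notes. Their settings and the depth of the libraries are not stated in these sources. The authors deposited 1 peak list per library. Its Peak Score is the score the authors deposited for each peak, made by their peak calling per the file headers. Its scale is not stated and its lowest value was 1.30 to 1.31, and it served only to rank peaks within a list. Distances to the TSS are the authors' values, per the file headers.

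A peak with no overlap of at least 1 bp in the other list was called lost or gained. Shares have Clopper-Pearson intervals. Differences between chromosomes were averaged over 10 score deciles, weighted by the peaks of 13 and 18, with normal 95% intervals from the binomial variances. The calculation was checked on simulated lists that lost peaks independently of each other, as the intervals assume. That check does not cover clustered peaks, skipped numbers or differences between libraries. For the upper bound, each skipped number was given to 1 called peak in its interval. Nearest genes were reassigned with RefSeq starts, since the authors' names, on which the lists were to be counted, differed between lists. By the authors' names, the 49 genes of the 7 lists had 62, 47, 42 and 46 distal peaks. Sequences are RefSeq's, from GRCh38.p14.

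Python 3.11.15, pandas 2.3.3, NumPy 2.4.6, SciPy 1.17.1 and matplotlib 3.10.9 were used. Named regions were the 5 lost and 5 gained peaks of best rank per comparison and the 5 of best mean rank in all lists, and named genes those of the lists and the 5 with most peaks per chromosome. Alternatives were 14 planned for each of 8 results, and others chosen after seeing the data. Members and lists were chosen with earlier results of these data known. The result for 1 marker gene is not reported here.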

Additional observations from a re-analysis of the deposited data

Results flagged for a closer look

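The listed number of distal peaks on chromosomes 13 and 18 moved in opposite directions with rapamycin in the 2 kinds of cells, by -150 in shControl and 21 in shARID1A, which differ by 171. The change of 21 is 1.67% (-6.02 to 10.0), an interval that spans 0, and it was negative in 3 of 8 alternatives. With RefSeq starts the changes were -134 and 5, which differ by 139. On chromosome 13 alone they were -98 and 24, which differ by 122, and with RefSeq starts -91 and 14, which differ by 105. With 1 library a group the difference was not tested. The shARID1A DMSO list, from which the changes of 21 and 24 are counted, skips 380 peak numbers on the 2 chromosomes. With every skipped number counted as a distal peak the changes were -4.61% in shControl and -22.0% in shARID1A, so the opposite directions do not hold at that bound. In the stronger 50% of each list they were -12.9% and -11.4%.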

How the results depend on the processing

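Of 160 alternative values of the main results, 140 stayed within the interval of the reported value and none of the 160 turned a called direction. Plain shares with a list's own skipped numbers counted as gained, given below, were not among the 160. There the DMSO gains turned to above those on 19 and 22, a turn that the 160 could not show. Loss with knockdown in DMSO exceeded that on 19 and 22 by 9.40 points as reported, by 4.31 in the stronger 50% of peaks, 6.21 against chromosomes 16 and 17, 2.88 against all other autosomes, 0.506 with skipped numbers at their upper bound and 3.25 in intervals without them. Gains with knockdown in DMSO differed by -2.00 in the stronger 50% and -3.22 against all other autosomes. With knockdown in rapamycin, losses differed by 0.382 in the stronger 50%, and gains by -2.21 there, -3.51 against 16 and 17 and -2.64 against all other autosomes. Gains with rapamycin in shControl differed by -1.62 in the stronger 50%. Gains with rapamycin in shARID1A differed by -6.28 at the upper bound and -4.61 in intervals without skipped numbers. The number of distal peaks changed with knockdown in DMSO by -11.7% among equal numbers of top peaks and by -0.909% with every skipped number counted. With knockdown in rapamycin it changed by -4.85% among equal numbers of top peaks and -23.2% in the stronger 50% of each list. With rapamycin in shARID1A it changed by -11.4% in the stronger 50% and -22.0% with every skipped number counted. Alternatives on the number of peaks, RefSeq starts and intervals without skips were chosen after seeing the data. Apart from skipped numbers, whose effect is by construction, the cause was not tested. The gains with knockdown were below those on 19 and 22 in the 16 alternatives of each treatment, from -8.30 to -2.00 points in DMSO and -8.03 to -2.21 in rapamycin, but these vary only the skipped numbers of the list that lacks the peaks, and the DMSO gains lie in a list with 380 of its own. Skipped numbers have no score and cannot enter the deciles. Counted as gained in the plain share, an alternative also chosen after seeing the data, they gave 36.5% in DMSO, above the 31.5% on 19 and 22, and left rapamycin at 20.9% and 24.3%. With a single library a group, no replicate could be left out. No paired analysis was possible because each group holds 1 library and no result comes from a test. Depth is unknown, so weak peaks that a shallower library would miss cannot be told apart from lost ones.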

Other observations

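Distance within the distal range went with loss with knockdown in DMSO on chromosomes 13 and 18, and on 19 and 22 as well. With knockdown in DMSO, 30.5% (26.3 to 34.9) of 466 peaks 1 to 10 kb from the TSS were lost, 38.2% (34.4 to 42.3) of 604 peaks 10 to 30 kb away, and 40.5% (36.5 to 44.6) of 580 peaks 30 to 100 kb away. On 19 and 22 the shares were 23.4%, 28.0% and 31.8%. The median ranks of the 3 bins on 13 and 18 were 55.9%, 61.0% and 58.1%. In rapamycin the shares on 13 and 18 were 32.2% (27.7 to 36.8), 32.9% (28.9 to 37.0) and 35.6% (31.6 to 39.8), with overlapping intervals. On 19 and 22 they were 27.05%, 29.5% and 30.2%. Intronic and intergenic peaks were lost alike in DMSO, at 38.3% and 38.3%, while 2 of 41 peaks annotated as promoter were lost, which had a median rank of 28.0%. The intervals of the distance bins cover counting error only, and the bins were not matched by score. The shARID1A DMSO list, against which losses in DMSO were called, skips 380 numbers on 13 and 18.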
